A study of Mus musculus with 4 samples.

Results

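The genes described here are the APOBEC family cytidine deaminases Apobec1, Apobec2 and Apobec3 in mouse B cells with and without an introduced Ascl2 gene. They were chosen by symbol, as the rows of both expression files whose gene name is 1 of these 3, and all 3 were found among 13792 listed genes. Naive B cells of C57BL/6 mice had been infected with a retrovirus and then grown in culture with antibodies to IgM and CD40, which replace antigen and T cell help. The virus was either RVKM-Empty, with no insert (control cells below), or RVKM-Ascl2, which carries the basic helix-loop-helix transcription factor Ascl2 (Ascl2 cells). The infection, the strain and the culture were shared by both groups, and the labels give neither the time in culture nor the share of cells infected. There was 1 library per group, so no value has a replicate error, no p-value was computed, and no difference has a replicate check. The 2 chromatin samples of the series, an input and an Ascl2 immunoprecipitation from germinal centre B cells of immunised C57BL/6 mice, were not analysed here.

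APOBEC proteins share a zinc-binding fold that removes the amino group from cytidine and leaves uridine in RNA or DNA. Apobec1 is known as the enzyme that edits apolipoprotein B messenger RNA in the gut, and in myeloid cells it edits many other transcripts near their 3′ ends. Apobec2 is known from heart and skeletal muscle, and no deaminase activity of it is generally accepted. Apobec3 is packaged into retrovirus particles and limits their spread, and the C57BL/6 allele is known for high expression. These cells had been exposed to a retrovirus in both groups.

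Ascl2 binds E-boxes, short DNA elements written CANNTG, and factors of its class prefer the form CAGCTG, so the stretches before the transcript starts are shown first. RefSeq promoter windows (GRCm38.p6, the assembly called mm10) were found for all 3 genes, with 2 starts for Apobec3. Each sequence is the 250 bases before the start, 5′ to 3′ on the gene's own strand. Capitals mark matches, on either strand, to CAGCTG, to the TATA element TATAAA and to an interferon response element, searched as GAAA, any 2 bases and GAAA again on 1 strand. The windows lie at chr6:122602445-122602694 (minus strand) for Apobec1, chr17:48432729-48432978 (minus strand) for Apobec2, and chr15:79892158-79892407 and chr15:79894773-79895022 (plus strand) for starts 1 and 2 of Apobec3. The Apobec1 window and both Apobec3 windows fall inside the annotated extent of their gene, which has other transcripts starting farther out.
Apobec1: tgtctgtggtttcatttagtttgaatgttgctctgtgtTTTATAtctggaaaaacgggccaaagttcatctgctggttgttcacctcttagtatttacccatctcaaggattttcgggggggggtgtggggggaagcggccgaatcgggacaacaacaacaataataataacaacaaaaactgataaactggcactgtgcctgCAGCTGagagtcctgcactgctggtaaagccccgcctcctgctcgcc
Apobec2: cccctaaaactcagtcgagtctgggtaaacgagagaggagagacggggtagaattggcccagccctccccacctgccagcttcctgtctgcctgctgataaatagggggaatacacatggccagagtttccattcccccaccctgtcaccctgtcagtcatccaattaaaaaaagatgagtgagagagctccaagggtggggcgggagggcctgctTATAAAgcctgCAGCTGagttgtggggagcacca
Apobec3 start 1: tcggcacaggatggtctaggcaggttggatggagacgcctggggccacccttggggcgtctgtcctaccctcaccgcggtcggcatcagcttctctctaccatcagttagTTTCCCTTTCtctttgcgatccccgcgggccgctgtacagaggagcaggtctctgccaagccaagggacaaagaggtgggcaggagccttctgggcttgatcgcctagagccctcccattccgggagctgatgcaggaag
Apobec3 start 2: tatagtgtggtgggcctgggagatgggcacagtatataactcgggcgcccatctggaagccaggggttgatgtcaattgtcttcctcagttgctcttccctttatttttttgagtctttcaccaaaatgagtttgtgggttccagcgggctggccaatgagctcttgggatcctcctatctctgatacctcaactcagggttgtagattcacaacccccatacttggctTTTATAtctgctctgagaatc

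Apobec1 and Apobec2 each held 1 CAGCTG element, and neither Apobec3 window did. In Apobec1 it lay 47 to 42 bases before the start, and in Apobec2 it lay 23 to 18 bases before the start. This form was present in 13.0% of 32851 windows of the same length in the table, and any CANNTG in 66.2%. The element sits in a run of 13 bases that the Apobec1 and Apobec2 windows have in common, GCCTGCAGCTGAG, which was looked for after the sequences had been seen. That run occurred, on either strand, in 5 of the 32851 windows, these included. Counting every CANNTG, there were 2 in Apobec1, 3 in Apobec2, 0 at start 1 of Apobec3 and 3 at start 2. The Apobec2 window also had TATAAA 34 to 29 bases before the start, and 12.4% of windows held that element on either strand. The reverse-strand form was present 212 to 207 bases before the Apobec1 start and 21 to 16 bases before start 2 of Apobec3. The interferon response element was found at start 1 of Apobec3 alone among the 4 windows, 140 to 131 bases before the start, and in 2.98% of all windows. A match describes the letters only, and binding at these places was not measured in the files used here.

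**Figure D1:**
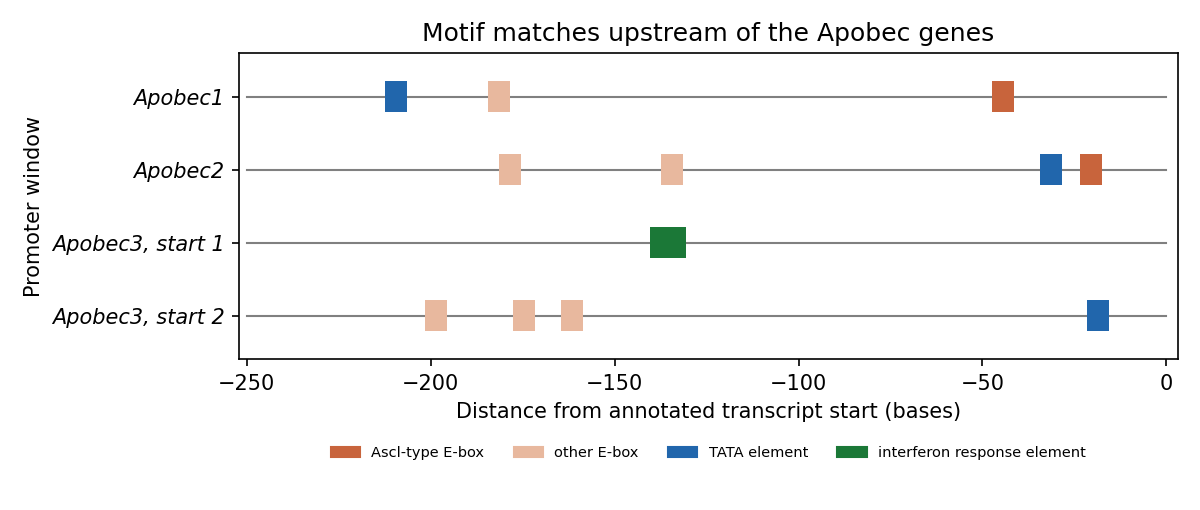
Positions of motif matches in the 4 promoter windows, as distance in bases from the annotated transcript start on the horizontal axis, with 1 line per window and 1 coloured box per match. The Ascl-type E-box, CAGCTG, is near the start in Apobec1 and Apobec2, and the interferon response element lies 140 to 131 bases before start 1 of Apobec3.

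The deposited values are abundances per gene, scaled for sequencing depth. Each is taken here as also scaled for gene length, which the sources used here do not state, so the order of levels between genes rests on that reading. The values summed to 750692 in control cells and 763932 in Ascl2 cells, and the medians were 10.2 and 10.2. Ascl2 itself was 0.0809 in control cells and 29.4 in Ascl2 cells, the direction the labels give. All 10 B cell markers on the list were listed, 4 of them higher in Ascl2 cells and 6 lower, and their summed values were 8345 and 6579. Ms4a1, which encodes the surface protein CD20, was 265 and 326. Cd74, with the largest values of the 10, was 5742 and 4168. Ratios below compare Ascl2 with control cells on a log2 scale after 1 was added to each value, an addition that pulls the ratios of low genes towards 0.

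The 3 genes lay at 3 separate levels, and both highly expressed members had nearly the same value in the 2 libraries. Apobec3 was highest, Apobec1 lower and Apobec2 close to the bottom of the range, in that order in each library. Apobec3 exceeded Apobec1 by 3.57 times in control cells and 3.51 times in Ascl2 cells, and Apobec1 exceeded Apobec2 by 99.8 times and 193 times. The 3 genes together made up 0.0585% of all summed abundance in control cells and 0.0566% in Ascl2 cells. The filter asked for a value of 1 or more in either library, which Apobec1 and Apobec3 passed and Apobec2 did not. In these bulk samples, fewer cells that express a gene and less RNA per cell cannot be told apart. Of these 2 members 0 were at least 2-fold apart. The share over all 12283 genes that passed was 2.25%, so a count of 0 among 2 genes says nothing particular about them. Of the same 12283 genes, 48.4% had a ratio above 0. That share is the base for the counts above and below 0 given for the lists. Genes with a ratio near 0 can change sides when the libraries are rescaled.

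**Figure D2:**
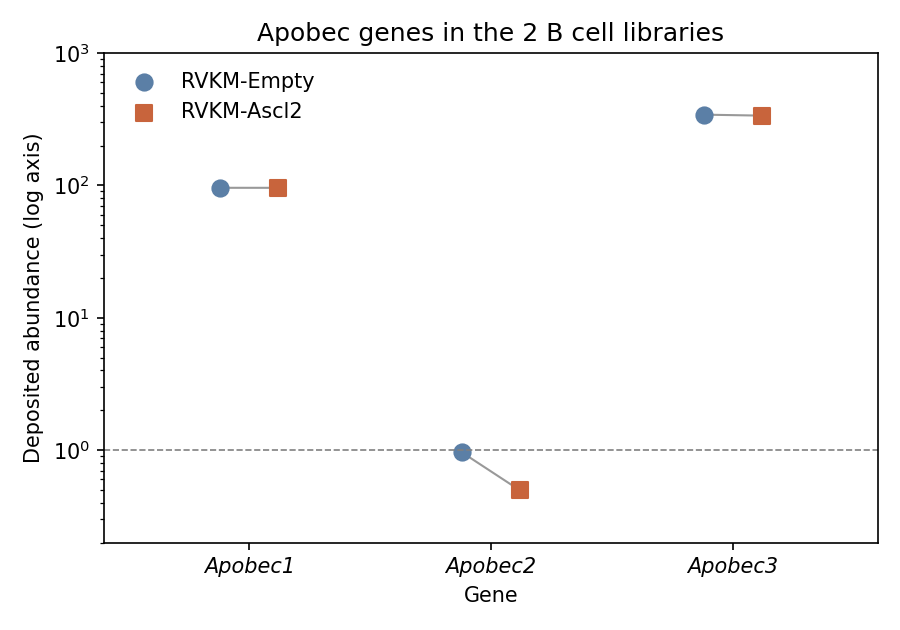
Deposited abundance of Apobec1, Apobec2 and Apobec3 on a log axis, with a circle for the empty-vector library, a square for the Ascl2 library, and a dashed line at the filter value of 1. Each symbol is 1 library, so there are no error bars. The pairs for Apobec1 (95.8 and 95.8) and Apobec3 (342 and 336) lie side by side, and both Apobec2 values lie under 1.

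Apobec1 (ENSMUSG00000040613, chromosome 6, 122577792 to 122603024, minus strand, mm10) was 95.8 in control cells and 95.8 in Ascl2 cells. The values differed by 0.0275%, lower in Ascl2 cells, and the log2 ratio was -0.0004, a value whose sign changed with the scaling of the libraries. This placed Apobec1 at rank 1030 of the listed genes in control cells and rank 989 in Ascl2 cells, within the top 7.47% and 7.17%. There were 781 other genes whose mean log2 level lay within 0.5 of that of Apobec1, and 2 of these had a ratio nearer to 0. Their ratios ran from -0.53 at the 5th percentile to 0.55 at the 95th, with a median of -0.07. The count of 2 was taken at the deposited scaling and was not recomputed under others. Those moved the Apobec1 ratio to values from -0.025 to 0.041. RefSeq lists 4 transcripts of Apobec1, and the deposited value does not separate them.

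The level of Apobec1 was like that of Pax5, the transcription factor that holds B cell identity, which was 98.4 and 97.7. Over the 2 libraries the 3 named genes with the pair of log2 values closest to that of Apobec1 were Eif3b, a translation initiation factor gene (96.5 and 95.5), the nuclear pore gene Nup210 (94.9 and 95.3) and Nsmce1, of the SMC5-SMC6 complex (95.3 and 97.5). Their Euclidean distances from Apobec1 were 0.011, 0.015 and 0.026 on the log2 scale. Closeness over 2 values describes the levels only.

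Apobec1 is also a gene of myeloid cells, so their markers were read beside it. Of 12 myeloid markers 8 were listed, 6 with a ratio above 0 and 2 below 0, and their summed values were 53.9 in control cells and 59.4 in Ascl2 cells. Lyz2, the macrophage lysozyme, was 16.0 and 21.4, Adgre1, which encodes F4/80, was 5.30 and 5.37, and the receptor gene Csf1r was 0.780 and 1.06. The 2 lower in Ascl2 cells were Cd68, a lysosomal protein gene of macrophages, at 16.2 and 10.8, and the complement gene C1qa at 1.07 and 0.478. Apobec1 was higher than each of the 8 markers in both libraries. What part of the Apobec1 value came from other cells was not tested.

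Transcripts of proteins that work with Apobec1 mostly had similar values in the 2 libraries. Of 9 genes for editing cofactors and partners, 7 were listed, 4 had a ratio above 0 and 3 a ratio below 0. With 1 added to each value none was at least 2-fold apart, where 2.25% of all genes were. The median log2 ratio of the 7 was 0.04, beside -0.01 over all 12283 genes that passed the filter. Rbm47, an RNA-binding cofactor of editing, was low, at 1.23 in control cells and 2.72 in Ascl2 cells (log2 ratio 0.74). Without the added 1 its values were more than 2-fold apart. The partner Syncrip, an RNA-binding protein gene, was 70.2 and 78.3, and Celf2, a regulator of splicing that binds Apobec1, was 38.3 and 56.1 (log2 ratio 0.54). Hnrnpab, which encodes an Apobec1-binding ribonucleoprotein, was 343 and 283. A1cf, the first known cofactor, was not among the listed genes.

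Transcripts known as Apobec1 editing targets are given by their levels, since editing itself was not measured in these files. Of 14 on the list, 13 were listed. Among these, 8 had a ratio above 0, 5 a ratio below 0, and the median was 0.12. Cd36, a fatty acid and scavenger receptor, was the member at least 2-fold apart, at 4.30 in control cells and 10.7 in Ascl2 cells (log2 ratio 1.15). Over all genes that passed the filter, 2.25% were that far apart. B2m, the light chain of MHC class I molecules, was 3118 and 3454. Tmem30a, a subunit of lipid flippases, was 38.2 and 46.2, Casp6, a caspase gene, was 18.6 and 14.6, and the amyloid precursor gene App was 5.83 and 4.69.

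Apobec2 (ENSMUSG00000040694, chromosome 17, 48419231 to 48432728, minus strand, mm10) was 0.960 in control cells and 0.496 in Ascl2 cells. Both values were low, and Apobec2 ranked 11932 and 13294 of 13792. Without a pseudocount the control value was 1.94 times the Ascl2 value, and the log2 ratio with a pseudocount of 1 was -0.39. Of 2454 other genes with a mean log2 level within 0.5 of Apobec2, 261 (10.6%) had a lower ratio, and 388 (15.8%) had a ratio above 0.39. Their 5th and 95th percentiles were -0.54 and 0.64. The Apobec2 difference thus lay inside the range of genes at its level, and the depth of the libraries, which would give its counting error, is unknown.

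The named genes closest to Apobec2 over the 2 libraries were Tmem116, a gene for a transmembrane protein (0.954 and 0.501), Fam71e1 (0.984 and 0.503) and Fam83f (0.956 and 0.452). The nearest listed gene on 1 side, Oard1, which removes ADP-ribose from proteins, lies 1961 bases away and was far higher, at 20.1 and 24.2. Unc5cl, the nearest listed gene on the other side at a distance of 21399 bases, was 6.22 and 5.52. Of 17 markers of skeletal and cardiac muscle, where Apobec2 is best known, 3 were listed and the other 14 were not. The fast troponin genes Tnnt3 and Tnni2 were 3.10 and 1.64 in control cells and 2.74 and 4.07 in Ascl2 cells, and the myosin light chain gene Mylpf was 3.87 and 4.34. Apobec2 was lower than all 3 in each library.

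Apobec3 (ENSMUSG00000009585, chromosome 15, 79892058 to 79918218, plus strand, mm10) was 342 in control cells and 336 in Ascl2 cells. The log2 ratio was -0.02, and it turned to 0.018 when the Ascl2 library was rescaled to the same sum without the 20 largest genes of either library, so no direction is read from it. Apobec3 ranked 222 and 250 of all listed genes, within the top 1.61% and 1.81%. Of 163 other genes with a mean log2 level within 0.5 of Apobec3, 7 had a ratio nearer to 0, and their 5th and 95th percentiles were -0.47 and 1.10. At least 2-fold differences were seen in 16 of these 163 genes (9.82%). The count of 7 was taken at the deposited scaling and was not recomputed under others. RefSeq lists 7 transcripts of Apobec3, and the deposited value does not separate them. The last 2415 bases of the annotated gene overlap Cbx7, a Polycomb gene on the minus strand with values of 25.2 and 23.97. The strand setting of the counting is not given in the sources used here, so reads of the overlap cannot be assigned with certainty. Among listed genes that do not overlap Apobec3, the nearest on 1 side was Cbx6, another Polycomb gene 57725 bases away (14.5 and 15.9). On the other side it was the ribosomal protein gene Rpl3, 159563 bases away (1095 and 903). Cbx7 extends into the stretch between Apobec3 and Rpl3.

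The named genes closest to Apobec3 over the 2 libraries were the nucleoside diphosphate kinase gene Nme2 (341 and 339), Arpc3, a subunit of the actin-nucleating Arp2/3 complex (340 and 334), and Ifi27l2a, an interferon-induced gene (336 and 326). Their distances were 0.013, 0.015 and 0.051 on the log2 scale.

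**Figure D3:**
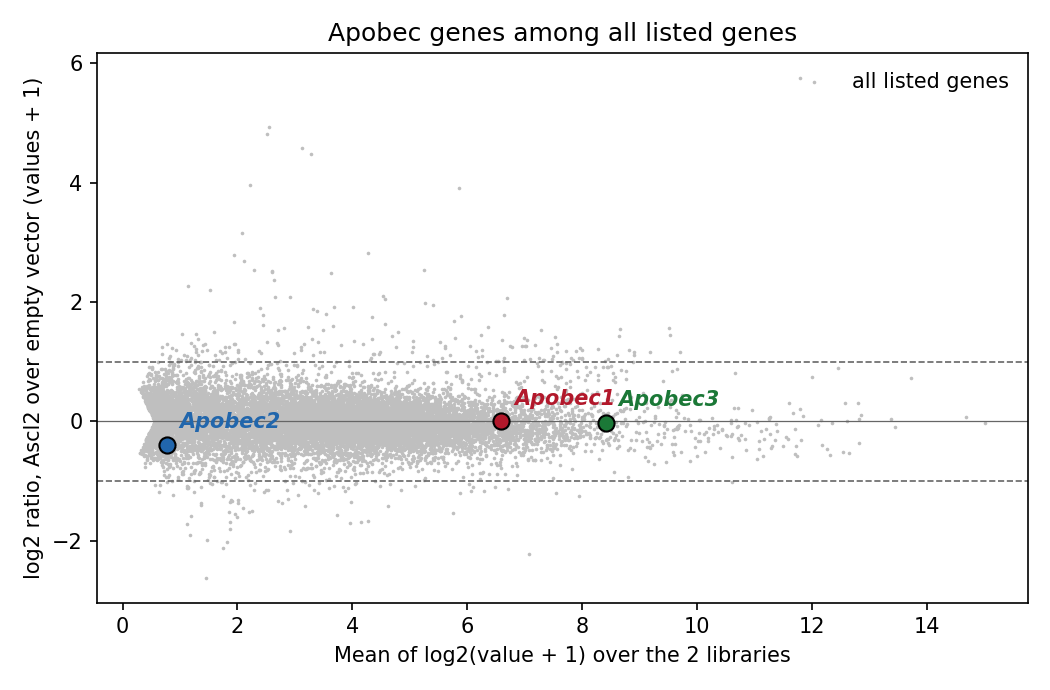
Log2 ratio of Ascl2 over control cells (1 added to each value) against the mean log2 level of the 2 libraries, with 1 grey point for each of 13792 genes, dashed lines at 2-fold and the 3 Apobec genes in colour. Apobec1 and Apobec3 lie on the line at 0 (-0.0004 and -0.02), and Apobec2, at -0.39, lies among the other low genes.

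Other factors that restrict retroviruses and mobile elements were read beside Apobec3. All 16 on the list were listed, 11 had a ratio above 0 and 5 below 0, beside 48.4% above 0 over all genes. None of the 16 was at least 2-fold apart where 2.25% of all genes were, and their median was 0.16 beside -0.01 over all genes. Apobec3 was above each of them in both libraries. Serinc3, a membrane protein that lowers the infectivity of retroviral particles, came next, at 269 in control cells and 323 in Ascl2 cells (log2 ratio 0.26). Trim28, a corepressor that silences endogenous retroviruses, was 215 and 189, and Samhd1, which breaks down deoxynucleotides, was 120 and 133. Bst2, or tetherin, which holds virus particles at the cell surface, was 52.0 and 42.5. Fv1, which blocks incoming murine leukaemia virus, was low at 2.86 and 3.75. The highest ratio on the list was that of Serinc5, at 15.1 and 22.3 (0.53), and the lowest was that of the RNA helicase gene Mov10, at 14.4 and 10.5 (-0.42).

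Interferon genes, to which Apobec3 expression is known to respond, were at similar levels in both libraries. Of 23, 22 were listed and passed the filter, 16 with a ratio above 0 and 6 below 0, beside 48.4% above 0 over all genes. None of the 22 was at least 2-fold apart, where 2.25% of all genes were, and their median was 0.06. The receptor chains Ifnar1 and Ifnar2 were 21.8 and 44.8 in control cells and 25.7 and 46.5 in Ascl2 cells. Stat2, a transcription factor of the pathway, was 15.6 and 20.2. Target genes were low, with Ifit1 at 2.11 and 2.92, Mx1 at 1.68 and 1.51 and Rsad2 at 2.87 and 3.69, while the ubiquitin-like modifier Isg15 was 22.9 and 23.6.

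Apobec3 and Apobec1 stood above every gene found from a list of other deaminases, and deaminases outside that list were not compared. Of 18 on the list, 11 were listed, 4 had a ratio above 0 and 7 below 0. None was at least 2-fold apart, where 2.25% of all genes were. The median of the 11 was -0.04. Adar, the adenosine deaminase of double-stranded RNA, was the highest of them, at 33.4 and 38.4, so that Apobec1 was 2.87 times Adar in control cells and 2.50 times in Ascl2 cells. Its relative Adarb1 was 1.07 and 1.13. The genes for the transfer RNA deaminase subunits Adat2 and Adat3 were 8.05 and 2.30 in control cells and 6.42 and 2.27 in Ascl2 cells. Dctd, which deaminates deoxycytidylate and had the lowest ratio (-0.43), was 13.7 and 9.93. The adenosine deaminase Ada was 7.74 and 8.46. Apobec4, the other family member on the list, was not among the listed genes.

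Deamination of cytidine in DNA leaves uracil, and the genes that handle uracil and abasic sites were read beside the deaminases. All 14 were listed, 10 had a ratio above 0 and 4 below 0, beside 48.4% above 0 over all genes. The median of the 14 was 0.11. The member at least 2-fold apart was Hmces, which shields abasic sites, with a log2 ratio of 1.09 at low values of 0.493 and 2.18. Over all genes that passed the filter, 2.25% were that far apart. Ung, the main uracil glycosylase, was 21.6 in control cells and 13.7 in Ascl2 cells (log2 ratio -0.63). The other glycosylase genes were Smug1 at 1.49 and 1.99, Tdg at 44.1 and 41.0, and Mbd4 at 19.9 and 26.7. Dut, which keeps uracil out of DNA by clearing its nucleotide, was 98.4 and 99.7, and the abasic endonuclease gene Apex1 was 107 and 120.

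**Figure D4:**
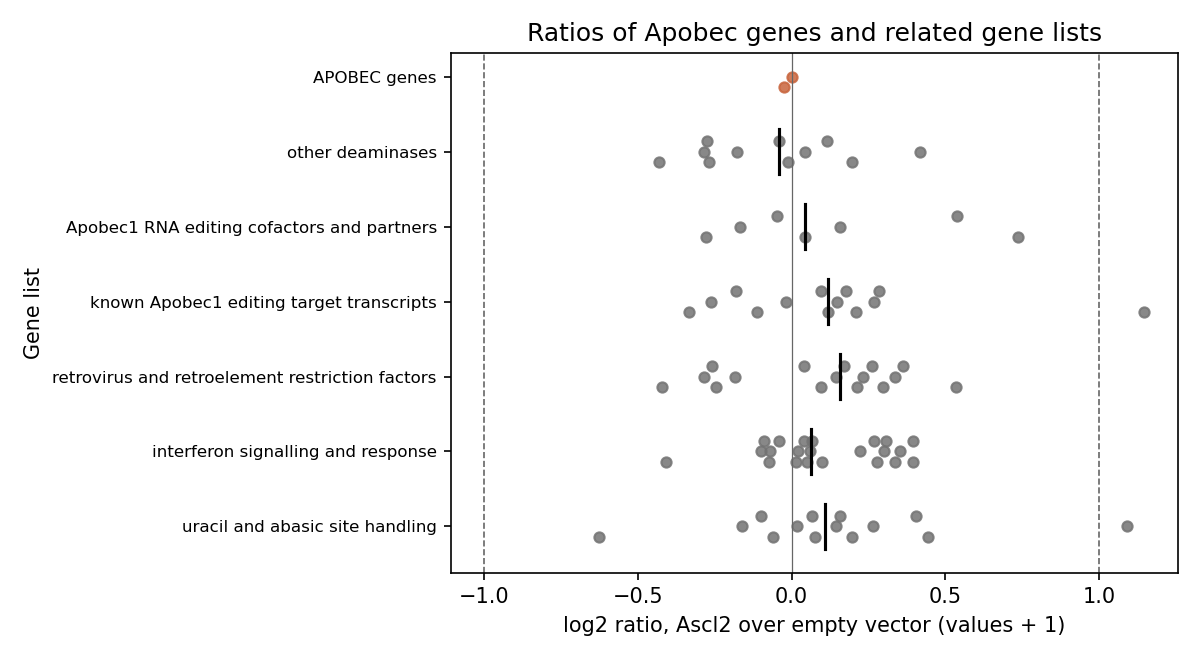
Log2 ratios (Ascl2 over empty vector, each plus 1) of Apobec1 and Apobec3 and of each member of 6 related gene lists that passed the filter, 1 point per gene, with a black bar at each list's median and dashed lines at 2-fold. The list medians lie between -0.04 and 0.16, and Cd36 and Hmces are the 2 points past 2-fold.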

How the data were processed

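The 2 RNA libraries were assigned to groups by their titles. Per the labels' protocols, RNA was isolated with Trizol and the libraries were made by an outside company. The authors deposited a signal per gene, scaled for depth. Not given in the sources used here are the name of the unit, the quantifier, the gene annotation and whether strand was used. The submitters' processing notes list mm10 as the build and MACS2, Picard, Bowtie2 and Trim Galore as tools, without their roles. Since the read depth behind the values is unknown, they carry no counting interval.

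Log2 ratios of the values plus 1 were computed with Python 3.11.15 and pandas 2.3.3. A filter kept genes that reached 1 in either library. With 1 library per group no test was possible. The calculation was tested on simulated data. Members, the 6 pathway lists and the 5 marker lists (B cell, myeloid, T cell, muscle, and gut and liver) were chosen with earlier results of these data known. All listed members of a list could be named, and any member past 2-fold was named. The same rule named the 3 genes closest to each Apobec gene in their pair of log2 values, leaving out unnamed loci and immunoglobulin segments. It also named the nearest listed gene on each side of Apobec2 and Apobec3, and any listed gene that overlaps them. Flanks of Apobec1 were not used. The reference table held 13752 of the gene IDs, and Sep15 was matched under its current symbol, Selenof. Coordinates and promoters are RefSeq's for GRCm38.p6. No protein sequence was used. Some genes, including 1 of the family, are not reported here.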

Additional observations from a re-analysis of the deposited data

How the results depend on the processing

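Each alternative was computed from the same 2 libraries, so it shows the effect of a setting and not an error. No paired analysis was possible because each group has 1 library and the labels give no replicate number. The Apobec1 log2 ratio stayed near 0 under every alternative computed, but its sign was set by the scaling. With the Ascl2 library rescaled to a median ratio of 0, to the same upper quartile, to the same sum without the 20 largest genes of either library, and to the same full sum, it was 0.014, 0.023, 0.041 and -0.025. Under the same 4 scalings the Apobec3 ratio was -0.010, -0.00022, 0.018 and -0.049. The Apobec2 ratio was negative throughout. It was -0.83 with a pseudocount of 0.1 and -0.12 with a pseudocount of 5, and -0.38 with the upper quartile, -0.376 with the sum without the largest genes and -0.398 with the full sum. The number of members at least 2-fold apart was 0 under all 7 alternatives. Over all genes the count was 276, and it was 590 with a pseudocount of 0.1, 123 with a pseudocount of 5, 1145 at 1.5-fold and 56 at 3-fold. Low values such as those of Apobec2 depend most on the pseudocount by its construction, and their counting error cannot be given without the depth.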

Other observations

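Among the remaining marker lists, Cr2, the complement receptor of B cells, was 7.35 in control cells and 30.5 in Ascl2 cells (log2 ratio 1.91), and the other 9 B cell markers were less than 2-fold apart. Over all genes that passed the filter, 2.25% were at least 2-fold apart. Of the 10 B cell markers, 4 had a ratio above 0 and 6 below 0. The median over the 10 was -0.01 and the mean, which Cr2 raises, was 0.13. Cd79a and Cd79b, the signalling chains of the B cell receptor, were 665 and 748 in control cells and 492 and 626 in Ascl2 cells. Of 9 T cell markers 3 were listed, with Lck, a kinase that some activated B cells also express, at 21.7 and 17.8, Cd28 at 0.734 and 0.751, and Zap70 at 0.805 and 0.182. Of 13 gut and liver markers 2 were listed, Epcam at 2.98 and 2.998 and Lgr5, a marker of intestinal stem cells, at 0.201 and 0.525.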
